A study of Homo sapiens with 9 samples.

Results

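The 10 genes of astroglial identity followed in U251 cells were SLC1A3, SLC1A2, GLUL, AQP4, ALDH1L1, S100B, FABP7, CD44, PROM1 and OLIG2. They were chosen by name for astrocyte function and glioma stem-like identity, and each has 1 row among the 22295 entries of the expression table. U251 cells are an established line from a human glioblastoma. The 9 RNA-seq libraries form 3 groups of 3, and no label says whether libraries of a group came from separate cultures, so p-values measure only the spread between these libraries. The sh-Luci-3d group (control) was infected for 3 days with a lentivirus carrying a control sh-RNA against luciferase. The sh-Ptbp1-3d group (3-day knockdown) was infected for the same time with a lentivirus carrying an sh-RNA against PTBP1, a repressor of neuronal splicing, and the sh-Ptbp1-7d group (7-day knockdown) for 7 days. The vectors carried an M-cherry marker, no sort of infected cells is described for these libraries, and the cells were moved to a neuronal induction medium with N2, B27, forskolin and dorsomorphin 2 days after infection. No sh-Luci library of day 7 was analysed here, so knockdown, day and time in the medium cannot be told apart in either comparison that involves the 7-day knockdown. As the check of the knockdown, PTBP1 was at 110.7, 111.9 and 124.4 FPKM (fragment counts scaled by transcript length and library size) in the control, at 66.2, 64.4 and 61.0 FPKM in the 3-day knockdown and at 49.7, 50.7 and 51.0 FPKM in the 7-day knockdown, with no overlap between groups. It was lower by a log2 fold change of -0.85 after 3 days (limma adjusted p = 0.00314) and of -1.19 after 7 days (limma adjusted p = 3.77e-07), each against the control. PTBP2, the neuronal relative, had means of 6.54, 17.8 and 27.1 FPKM in control, 3-day and 7-day knockdown.

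Astrocytes clear glutamate from the synapse through the transporters encoded by SLC1A3 (GLAST) and SLC1A2 (GLT-1), and convert it to glutamine with the enzyme encoded by GLUL (glutamine synthetase). The water channel AQP4 sits at astrocyte endfeet, ALDH1L1 is an enzyme of folate metabolism, and S100B is a calcium-binding protein. FABP7 is a fatty acid binding protein of radial glia. CD44, the receptor of hyaluronan, PROM1 (CD133) and the transcription factor OLIG2 mark cells with stem-like properties in glioblastoma.

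Promoter sequences were looked up to show what stands before the starts of the members that differed. The RefSeq promoters of GRCh38.p14 hold 16 windows of 250 bases before a start for 7 members, and hold S100B, SLC1A2 and OLIG2 in no row. SLC1A3 has 3 such windows, GLUL 2 and CD44 1, and the FPKM values do not tell which start was used. The letters searched on both strands were TATAAA for the box of that name, GGGCGG for the GC box, TGANTCA for the AP-1 site and TGACG for the CRE element. The E-box, CANNTG, was searched too, is in 61.8% of all promoters and is not shown. The whole window is shown for the most upstream start of SLC1A3, which lies at chr5:36596338-36596587 on the + strand and is the only one of the 3 without bases in a GENCODE exon. Capitals mark the single match to any of these, a GC box on the opposite strand. The window ends upstream of position 36606355, where GENCODE v29 places the first base of the gene.
SLC1A3, most upstream start: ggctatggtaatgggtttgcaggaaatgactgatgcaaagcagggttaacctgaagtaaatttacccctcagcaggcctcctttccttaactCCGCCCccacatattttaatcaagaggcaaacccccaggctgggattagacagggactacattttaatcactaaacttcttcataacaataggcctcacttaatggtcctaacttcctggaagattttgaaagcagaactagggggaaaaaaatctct
Short stretches around further matches are shown for the start of SLC1A3 farthest downstream, the most upstream start of GLUL and the start of CD44, with the matches in capitals. All 250 bases of these windows of GLUL and CD44 lie in GENCODE exons, and 96 of that of SLC1A3.
SLC1A3, AP-1 site, chr5:36606816-36606842, + strand: aggagtagccTGAATCAaggctagcca
SLC1A3, AP-1 site, chr5:36606918-36606944, + strand: aattcggagtTGAGTCAttcggggtgg
GLUL, GC box, chr1:182391996-182392021, - strand: ttcccccacgCCGCCCtgcccctccc
GLUL, GC box, chr1:182391825-182391850, - strand: agggcaccggGGGCGGccccgggccg
CD44, pair of GC boxes, chr11:35139001-35139024, + strand: GGGCGGgggcagaggggcCCGCCC
Of all 35116 promoters in the table, 42.6% hold the GC box, 6.57% the AP-1 site, 10.7% the TATA letters and 21.2% the CRE letters in the same window. The printed window of SLC1A3 has a GC content of 43.2%, that of GLUL 74.8% and that of CD44 62.4%, beside a median of 58.0% over all promoters. The shares are per window, and 3 windows were searched for SLC1A3. Members listed at or near 0 FPKM hold such letters too: 1 window of ALDH1L1 has 4 GC boxes and 1 window of PROM1 an AP-1 site. These matches describe the letters, and no binding was measured.

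Before the differences, the label was checked against defining markers. Of 7 astrocyte markers, 2 had a mean of at least 1 FPKM in each group: SLC1A3 and GJA1, which encodes the gap junction protein connexin 43. The intermediate filament gene GFAP was between 0.109 and 1.15 FPKM in the 9 libraries. AQP4, SLC1A2 and ALDH1L1 were below 0.17 FPKM in every library. The summed level of the 7 markers was 8.38 to 10.6 FPKM in the control, 8.85 to 10.03 FPKM in the 3-day knockdown and 21.4 to 21.7 FPKM in the 7-day knockdown. Several genes that define mature astrocytes were thus at trace level or listed at 0, and the members are called astroglial by their known roles and not by the state of these cells. Of the oligodendrocyte lineage markers, OLIG1 and MOG were listed at 0 in all 9 libraries and PDGFRA was at 1.31 to 2.45 FPKM. The myeloid markers AIF1 and TYROBP were also listed at 0 throughout. The 7 neuron markers had higher sums than the astrocyte markers in every group. These were 270.7 to 320.4 FPKM in the control, 341.0 to 361.7 FPKM in the 3-day knockdown and 163.8 to 170.2 FPKM in the 7-day knockdown. Most of this was the tubulin gene TUBB3, with means of 261.3, 316.9 and 118.2 FPKM in the same order.

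The levels of the members differed widely. CD44 carried 96.5% of the summed FPKM of the 10 members in the control, 93.7% in the 3-day knockdown and 81.9% in the 7-day knockdown. GLUL, SLC1A3 and FABP7 followed with group means of 1.09 to 7.66 FPKM, and S100B with 0.115 to 0.797 FPKM. AQP4, SLC1A2, ALDH1L1, PROM1 and OLIG2 had means below 0.08 FPKM in every group. In the control, GLUL overlapped with SLC1A3 and SLC1A3 with FABP7 in the order of levels, while CD44 above them and S100B below them stood apart. In the 7-day knockdown, CD44, SLC1A3 and GLUL stood in this order with no overlap between neighbours, and FABP7 overlapped with S100B. Without CD44, the summed level was 5.91 to 7.18 FPKM in the control and 12.9 to 14.7 FPKM in the 7-day knockdown. In the 3-day knockdown it was 6.15 and 6.99 FPKM in replicates 2 and 1, and 20.5 FPKM in replicate 3, a library that stands apart and is described with FABP7.

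Differences were tested with limma on log2(FPKM + 0.1) over all genes whose mean was 0.1 FPKM or more, a scale on which differences of low genes come out smaller than on FPKM itself. The thresholds were a fold change above 2 with a Benjamini-Hochberg adjusted p (FDR) below 0.05 for the comparison at day 3, and below 0.01 for both comparisons with the 7-day knockdown. Of the 10 members, 5 reached the minimum mean and were tested: SLC1A3, GLUL, S100B, FABP7 and CD44. Between the 3-day knockdown and the control, 0 of these 5 passed the thresholds, where 0.0129% of the 15551 genes tested did. An unadjusted p below 0.05 was reached by 1126 of all genes and by 0 of the 5. None of the 5 separated the groups without overlap, which 10.8% of all genes did.

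Between the 7-day and 3-day knockdown (the days), 3 of the 5 passed the thresholds, SLC1A3 and S100B higher and CD44 lower. Of all genes tested, 14.2% passed, 8.31% higher and 5.9% lower. Against the control the same 3 genes passed in the same directions, beside 14.6% of all genes, 8.93% higher and 5.68% lower. Both comparisons use the 7-day knockdown libraries. Without the fold threshold, GLUL passed too, making 4 of 5 in each comparison, where 35.8% of all genes passed against the 3-day knockdown and 35.6% against the control. The groups did not overlap for any of the 5 in either comparison, and for 62.3% and 55.9% of all genes. Leaving out 3-day knockdown replicate 3 left the count of members past the thresholds at 3 in both comparisons.

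**Figure D1:**
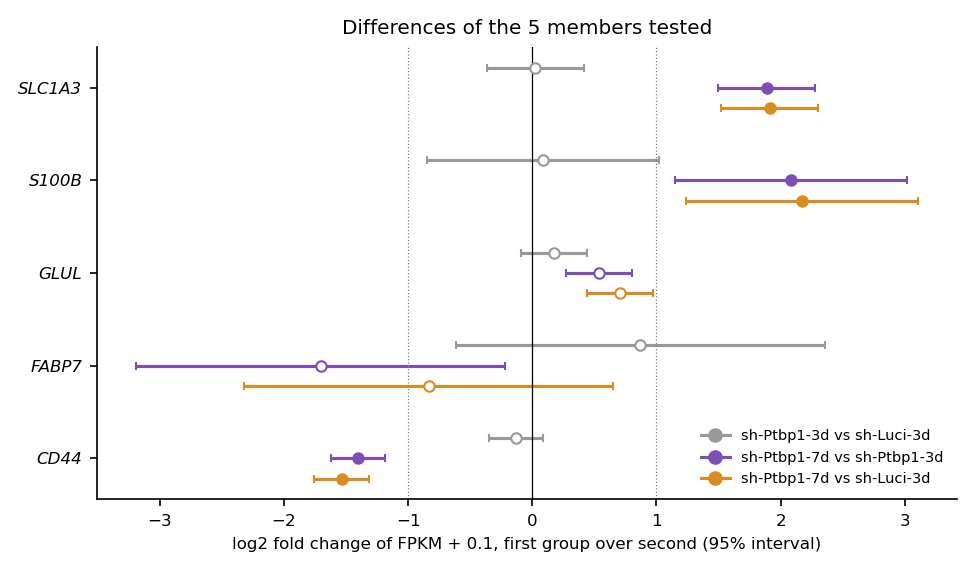
Log2 fold change of FPKM + 0.1 (horizontal axis) of the 5 members tested, with the 95% interval from limma, in 3 comparisons. Filled points passed the thresholds and open points did not, and dotted lines mark a fold change of 2. SLC1A3 and S100B lie right of 1 and CD44 left of -1 in both comparisons with the 7-day knockdown.

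Among the genes of glutamate handling, SLC1A3 rose in the 7-day knockdown. The gene lies on chromosome 5 from 36606355 to 36688334 on the + strand of GRCh38 (GENCODE v29). It was at 1.88, 2.47 and 1.61 FPKM in the control, at 1.67, 1.91 and 2.47 FPKM in the 3-day knockdown and at 7.69, 8.04 and 7.24 FPKM in the 7-day knockdown. The 3 libraries of day 7 were all above the 6 libraries of day 3, which overlapped between knockdown and control. The mean was 7.66 ± 0.400 FPKM (SD, n = 3) in the 7-day knockdown, 3.79 times that of the 3-day knockdown (log2 fold change 1.89, SE 0.177, limma adjusted p = 9.32e-06). Against the control the log2 fold change was 1.91 (limma adjusted p = 8.53e-06). Between the day 3 groups it was 0.02, with a 95% interval of -0.37 to 0.42 and a limma adjusted p of 0.986. In the ranking of all entries by mean FPKM, SLC1A3 was above 52.6% of entries in both day 3 groups and above 68.8% in the 7-day knockdown.

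SLC1A2, the other astrocyte glutamate transporter, stayed near 0. It lies beside CD44 on chromosome 11, from 35251205 to 35420063 on the - strand. It was at 0.0479, 0.0407 and 0.0242 FPKM in the control, at 0.0133, 0.0317 and 0.166 FPKM in the 3-day knockdown and at 0.0449, 0.0210 and 0.0302 FPKM in the 7-day knockdown. The libraries of the groups overlapped, and the highest value was that of 3-day knockdown replicate 3.

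Of the other SLC1 transporters, the neuronal glutamate transporter SLC1A1 was at 5.41 ± 1.04 FPKM in the control, 5.14 ± 0.325 FPKM in the 3-day knockdown and 9.29 ± 0.536 FPKM in the 7-day knockdown (SD, n = 3 each). Its log2 fold change of 0.84 between the days passed the FDR threshold (limma adjusted p = 0.000535) and not the fold threshold. The neutral amino acid transporter SLC1A4 had group means of 6.61, 7.00 and 8.92 FPKM in control, 3-day and 7-day knockdown, and differed by 0.35 on the log2 scale between the days (limma adjusted p = 0.0186). SLC1A5, the glutamine transporter ASCT2, had means of 78.1, 81.7 and 92.6 FPKM and differed by 0.18 on that scale (limma adjusted p = 0.182). By FPKM, SLC1A5 thus stood above the other 4 SLC1 genes named here in all 3 groups, and SLC1A3 was above SLC1A2 in each of the 9 libraries.

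GLUL, on chromosome 1 from 182381704 to 182392206 on the - strand, was at 2.37, 2.48 and 2.58 FPKM in the control. It was at 3.06, 2.57 and 2.80 FPKM in the 3-day knockdown and at 4.46, 4.14 and 3.77 FPKM in the 7-day knockdown. The day 7 libraries lay above all others, while the day 3 groups overlapped in a single pair of libraries. The log2 fold change between the days was 0.54 (SE 0.120, limma adjusted p = 0.00368) and against the control 0.71 (limma adjusted p = 0.000605). Both passed the FDR threshold and stayed under the fold threshold, with 95% intervals of 0.27 to 0.80 and 0.44 to 0.98. Between the days the FDR threshold was missed under quantile normalization (limma adjusted p = 0.02005) and when 1 library was left out, namely replicate 2 or 3 of the 3-day knockdown (adjusted p of 0.0197 and 0.0131 in limma) or replicate 1 or 2 of the 7-day knockdown (0.0191 and 0.0156). GENCODE v29 names 4 pseudogenes for GLUL, so reads may be shared between near-identical copies.

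Of 16 further genes of glutamate and glutamine handling, 12 were tested, and 1 rose and 1 fell past the thresholds between the days. Of all genes tested, 8.31% rose and 5.9% fell, and these shares stand beside every list count between the days given below. Their median log2 fold change was 0.02, beside 0.09 over all genes. The glutamine transporter SLC38A3 was at 0.683, 0.831 and 7.41 FPKM in control, 3-day and 7-day knockdown, a difference of 3.03 on the log2 scale between the days (limma adjusted p = 2.27e-07). The cystine-glutamate exchanger SLC7A11 was at 20.2, 19.0 and 5.39 FPKM, and fell by 1.82 on the log2 scale (limma adjusted p = 5.63e-06).

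S100B rose from a very low level. It lies on chromosome 21 from 46598962 to 46605208 on the - strand. It was at 0.225, 0.137 and 0 FPKM in the control, at 0.1801, 0.0942 and 0.0705 FPKM in the 3-day knockdown and at 0.933, 0.794 and 0.663 FPKM in the 7-day knockdown. All day 7 libraries stayed below 1 FPKM, and all were above the highest day 3 library. The mean of the 7-day knockdown was 6.93 times that of the 3-day knockdown, with a log2 fold change of FPKM + 0.1 of 2.08 (SE 0.423, limma adjusted p = 0.00202). Against the control the log2 fold change was 2.17 (limma adjusted p = 0.00153), and between the day 3 groups 0.09 (95% interval -0.85 to 1.02). The call depended on the pseudocount: with 1 FPKM added, the log2 fold changes were 0.69 and 0.68 and under the fold threshold, and with 0.01 FPKM added the adjusted p was 0.0393 and 0.0136. Without 7-day knockdown replicate 1 the adjusted p against the 3-day knockdown was 0.0104.

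The S100 relatives showed the opposite count. Of 18 other S100 genes, 11 were tested, 0 rose and 5 fell past the thresholds between the days, and the median log2 fold change was -0.58. Over all genes tested, the shares were 8.31% higher and 5.9% lower. S100A6 had the highest level of the family, at 2407 ± 690.7 FPKM in the control, 2729 ± 182.4 FPKM in the 3-day knockdown and 865.9 ± 131.8 FPKM in the 7-day knockdown (SD, n = 3 each), a fall of 1.67 on the log2 scale (limma adjusted p = 2.94e-05). S100A10, the partner of annexin A2, was at 300.1, 325.5 and 87.7 FPKM in control, 3-day and 7-day knockdown, and fell by 1.89 on the log2 scale (limma adjusted p = 2.15e-08). S100A3 fell by 3.09, S100A2 fell by 2.40 and S100A4 fell by 1.94 on the same scale. S100A11 and S100A16 are abundant as well and differed by -0.09 and -0.21, with adjusted p of 0.461 and 0.0742 in limma. S100A4 and S100A6 fall outside the rule for naming and were named after their values were seen, as were S100A11 and S100A16.

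**Figure D2:**
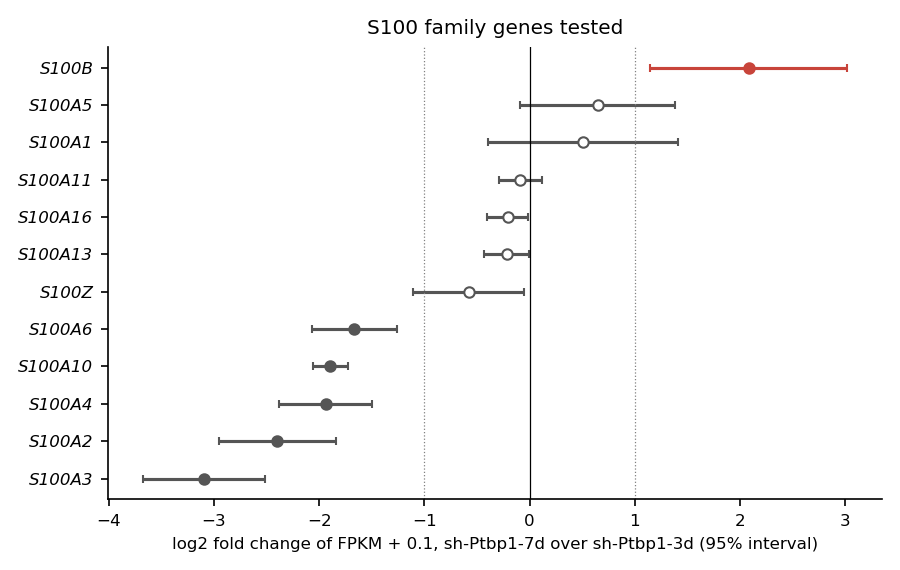
Log2 fold change of FPKM + 0.1 between the 7-day and 3-day knockdown (horizontal axis) with the 95% interval from limma, for S100B and the 11 other S100 genes tested. Filled points passed the thresholds: S100B at 2.08 on the right, and S100A6, S100A10, S100A4, S100A2 and S100A3 between -1.67 and -3.09 on the left.

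AQP4 was detected only at trace level. It lies on chromosome 18 from 26852038 to 26865818 on the - strand and was at 0.0415, 0.0566 and 0.0166 FPKM in the control. It was at 0.0440, 0.0111 and 0 FPKM in the 3-day knockdown and at 0.0555, 0.0110 and 0.0311 FPKM in the 7-day knockdown, so the groups overlapped. The related water channel AQP1 had means of 0.508, 0.562 and 0.366 FPKM in control, 3-day and 7-day knockdown (log2 fold change between the days -0.55, limma adjusted p = 0.167). Of 17 astrocyte water, ion and gap junction genes, 9 were tested and 0 passed the thresholds in either comparison with the 7-day knockdown. Without the filter on low values, without assembled loci and mitochondrial genes or without the trend, 1 gene of the list passed. GJA1 was at 6.76 ± 0.587 FPKM in the 3-day knockdown and 12.6 ± 0.296 FPKM in the 7-day knockdown (SD, n = 3 each). Its log2 difference of 0.89 (limma adjusted p = 7.05e-05) missed the fold threshold.

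ALDH1L1, on chromosome 3 from 126103562 to 126197994 on the - strand, was listed at 0 in 8 of 9 libraries and at 0.0429 FPKM in 3-day knockdown replicate 1. Its mitochondrial relative ALDH1L2 had means of 0.171, 0.178 and 0.161 FPKM in control, 3-day and 7-day knockdown. All 14 other folate one-carbon genes were tested, and 4 fell and 0 rose past the thresholds between the days, with a median log2 fold change of -0.33. The thymidylate synthase gene TYMS, which uses folate to make thymidylate, was at 131.0, 144.7 and 50.1 FPKM in control, 3-day and 7-day knockdown and fell by 1.53 on the log2 scale (limma adjusted p = 9.64e-08). GLDC, the glycine decarboxylase, fell by 1.99 on that scale, from 1.94 to 0.405 FPKM. MTHFD2L, a mitochondrial folate enzyme, passed the thresholds only against the control, where it fell by 1.43 on the log2 scale from 9.49 to 3.44 FPKM (limma adjusted p = 7.42e-05).

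FABP7 lies on chromosome 6 from 122779475 to 122784074 on the + strand. It was at 2.19, 1.998 and 1.64 FPKM in the control, at 1.98, 1.52 and 14.99 FPKM in the 3-day knockdown and at 1.51, 0.637 and 1.14 FPKM in the 7-day knockdown. GENCODE v29 names 2 pseudogenes for FABP7, so reads may be shared with them. Replicate 3 of the 3-day knockdown was the single high library, and the day 7 libraries were all below the other 6, by a narrow margin of 1.51 against 1.52 FPKM. The log2 fold change between the 3-day knockdown and the control was 0.87 (SE 0.673, limma adjusted p = 0.805), and without replicate 3 of the 3-day knockdown it was -0.14. Between the days it was -1.70 (limma adjusted p = 0.0557), and without that library -0.69 (limma adjusted p = 0.0963). Against the control it was -0.84 (limma adjusted p = 0.327), with an adjusted p of 0.0300 in limma where that library was left out. FABP7 thus passed the thresholds in no comparison, with or without that library.

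The same library held other transcripts that were listed at 0 or near it elsewhere. STMN2, a microtubule regulator of growing axons, was at 11.5 FPKM in 3-day knockdown replicate 3 and listed at 0 in the other 8 libraries. DCX, a marker of immature neurons, was at 2.14 FPKM there and below 0.04 FPKM in the other 8 libraries. Of 18 neuronal markers, 13 were at 1 FPKM or more in this library and 8 in each of the others, and 0 were listed at 0 in it against 3 to 5 in the others. The summed level of these 18 was 601.1 FPKM there, and 574.5 and 584.8 FPKM in replicates 2 and 1 of its group. FABP5, another fatty acid binding protein, was at 1.71 FPKM there, at 0.112 FPKM in 7-day knockdown replicate 3 and listed at 0 in 7 libraries, but GENCODE v29 names 14 pseudogenes for it and its value is uncertain. FABP3 had means of 0.671, 0.587 and 0.844 FPKM in control, 3-day and 7-day knockdown. PTBP1 was at 61.0 FPKM in replicate 3 and at 64.4 and 66.2 FPKM in the others of its group. The part of these transcripts in the values of FABP7 and SLC1A2 was not tested. STMN2 and DCX were picked for the comparison with FABP7 after their values were seen.

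**Figure D3:**
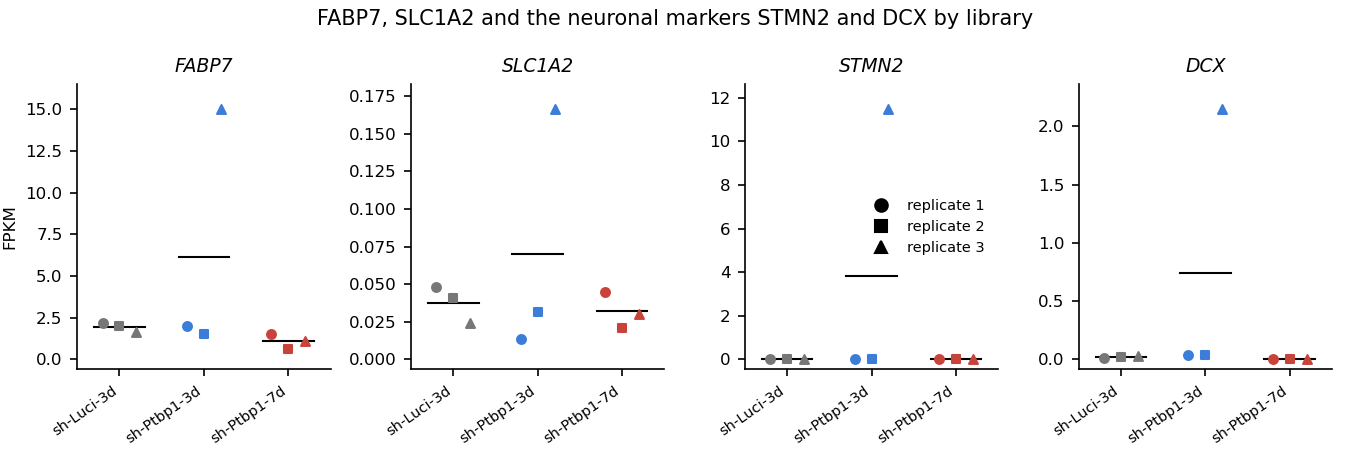
FPKM (linear axes, 1 scale per gene) of FABP7, SLC1A2, STMN2 and DCX in the 9 libraries, with circles, squares and triangles for replicates 1, 2 and 3 and a short line for the group mean. In all 4 panels the blue triangle, 3-day knockdown replicate 3, is the highest point, at 14.99, 0.166, 11.5 and 2.14 FPKM.

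Among 14 other genes of lipid-binding proteins, 5 were tested and 2 fell past the thresholds between the days. DBI, the acyl-CoA binding protein, was at 141.1, 154.4 and 67.6 FPKM in control, 3-day and 7-day knockdown and fell by 1.20 on the log2 scale (limma adjusted p = 2.57e-05). The other was FABP6, a bile acid binding protein with a mean of 0.382 FPKM over the 9 libraries, named after its value was seen.

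CD44 was the most abundant member and fell in the 7-day knockdown. It lies on chromosome 11 from 35138870 to 35232402 on the + strand. It was at 191.7, 198.6 and 155.6 FPKM in the control, at 168.9, 174.5 and 153.4 FPKM in the 3-day knockdown and at 64.6, 62.0 and 60.4 FPKM in the 7-day knockdown. The day 7 libraries lay close together and far below the 6 day 3 libraries, which overlapped between knockdown and control. The mean was 62.3 ± 2.12 FPKM (SD, n = 3) in the 7-day knockdown, 0.376 times that of the 3-day knockdown (log2 fold change -1.41, SE 0.0987, limma adjusted p = 1.12e-06). Against the control the log2 fold change was -1.54 (limma adjusted p = 5.61e-07), and between the day 3 groups -0.13, with a 95% interval of -0.35 to 0.09. CD44 was still above 95.8% of all entries in the 7-day knockdown, after 98.8% in the control. The values are sums over the splice forms of the gene, and forms with variable exons could not be told apart.

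The ligands and partners of CD44 moved in both directions. Of 21 such genes, 17 were tested, and 4 rose and 4 fell past the thresholds between the days. The hyaluronan synthase genes HAS2 and HAS3 were at 2.02 and 1.65 FPKM in the 3-day knockdown and at 6.41 and 5.97 FPKM in the 7-day knockdown, log2 fold changes of 1.62 (limma adjusted p = 8.07e-06) and 1.82 (limma adjusted p = 0.00122). LGALS9, the ligand galectin-9, was at 13.5, 11.2 and 78.3 FPKM in control, 3-day and 7-day knockdown (log2 fold change between the days 2.80, limma adjusted p = 7.61e-06). SPP1, the ligand osteopontin, was at 493.6, 468.3 and 133.2 FPKM and fell by 1.81 on the log2 scale (limma adjusted p = 2.39e-08). HMMR, another hyaluronan receptor, fell by 1.69 on that scale, from 13.2 to 4.02 FPKM. The third synthase gene, HAS1, had means of 0.115, 0.123 and 0.118 FPKM in control, 3-day and 7-day knockdown and was named after its values were seen.

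PROM1 and OLIG2, the other stem-like members, were at or near 0. PROM1, on chromosome 4 from 15963076 to 16084378 on the - strand, was at 0.0204, 0 and 0.0105 FPKM in the control, at 0, 0.0113 and 0.0222 FPKM in the 3-day knockdown and at 0 in all libraries of the 7-day knockdown. OLIG2, on chromosome 21 from 33025845 to 33029196 on the + strand, was at 0, 0 and 0.0318 FPKM in the control, at 0, 0 and 0.0146 FPKM in the 3-day knockdown and at 0.0316, 0.0433 and 0 FPKM in the 7-day knockdown. The groups overlapped for both genes. Without the filter on low values, 0 of the 5 members below the minimum mean passed the thresholds in any comparison. That count was fixed beforehand: with 0.1 FPKM added, group means below 0.1 FPKM cannot differ by a fold change above 2. It therefore does not tell whether these members changed. Their relatives were low too, with PROM2 below 0.11 FPKM in every library and OLIG1 listed at 0. PROM2 was above PROM1 in each library.

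Of 20 other glioma stem-like genes, 14 were tested, and 2 rose and 2 fell past the thresholds between the days, with a median log2 fold change of 0.11. L1CAM, a neural adhesion molecule, was at 15.4, 18.3 and 2.39 FPKM in control, 3-day and 7-day knockdown and fell by 2.90 on the log2 scale (limma adjusted p = 2.27e-08). ALDH1A3, a retinaldehyde dehydrogenase, was at 7.00, 7.57 and 1.47 FPKM and fell by 2.28 on that scale (limma adjusted p = 4.46e-08). The 2 genes that rose had means below 1 FPKM over the 9 libraries, under the limit for naming. Of 20 oligodendrocyte lineage genes, 6 were tested, and 1 rose and 1 fell.

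Further lists describe astrocytes more broadly. Of 27 astrocyte secreted and metabolic genes, 23 were tested, and 4 rose and 2 fell past the thresholds between the days. CST3, the protease inhibitor cystatin C, was at 103.8, 124.8 and 428.6 FPKM in control, 3-day and 7-day knockdown (log2 fold change 1.77, limma adjusted p = 9.81e-07). PTPRZ1, a receptor phosphatase of glia, was at 0.551, 0.611 and 2.12 FPKM (log2 fold change 1.69, limma adjusted p = 0.000552). THBS1, the synaptogenic factor thrombospondin-1, fell by 1.83 on the log2 scale, from 34.7 to 9.75 FPKM, and the glypican gene GPC6 fell by 1.24, from 3.31 to 1.36 FPKM. Of 15 astrocyte fate regulators, 13 were tested and 1 rose and 1 fell, near the shares of 8.31% and 5.9% over all genes. The gene that fell was ID1, an inhibitor of differentiation downstream of BMP signals, from 28.7 to 11.3 FPKM (limma adjusted p = 3.60e-06). The gene that rose had a mean below 1 FPKM over the 9 libraries, under the limit for naming.

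Markers of other cell types were counted in the same fit. Of 18 neuronal markers, 15 were tested, and 1 rose and 4 fell past the thresholds between the days. SCG2, a secretory granule protein, was at 2.63, 1.90 and 49.4 FPKM in control, 3-day and 7-day knockdown (log2 fold change 4.63, limma adjusted p = 6.52e-10). The tubulin gene TUBB3 fell by 1.42 and the neurofilament gene NEFL fell by 1.22 on the log2 scale. MAP2, the microtubule protein of dendrites, was at 22.4, 20.3 and 38.9 FPKM in control, 3-day and 7-day knockdown with no overlap between the days, and its log2 fold change of 0.94 passed the FDR threshold (limma adjusted p = 0.00058) and not the fold threshold. Against the control 2 of the 15 rose and 3 fell, and the median log2 fold change was 0.0, beside -1.14 between the days. Replicate 3 of the 3-day knockdown had more of these markers at 1 FPKM or more than any other library. It is in neither group compared when the 7-day knockdown is set against the control. It still enters the minimum mean and the spread in that comparison, both taken over all 9 libraries. STMN2 and DCX reached the minimum mean only through that library. STMN2 was listed at 0 in the control and the 7-day knockdown, which gives it a log2 fold change of 0.0 between these groups. The part of that library in the medians of -1.14 and 0.0 was not tested. MAP2 falls outside the rule for naming and was named after its values were seen. The synaptic gene SNAP25 passed the thresholds only against the control (log2 fold change 1.69, limma adjusted p = 9.16e-05). Of the 12 myeloid and 10 endothelial and mural markers, 4 and 5 were tested, and 0 and 1 passed. In bulk libraries, fewer cells with a transcript and less of it per cell cannot be told apart, for these lists and for the members alike. In none of the 13 lists did a gene pass the thresholds between the 3-day knockdown and the control. Of all 15551 genes tested only 2 (0.0129%) did, so a count of 0 in a list is near that share. PTBP1 itself was not among them, as its log2 fold change of -0.85 did not reach the fold threshold.

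**Figure D4:**
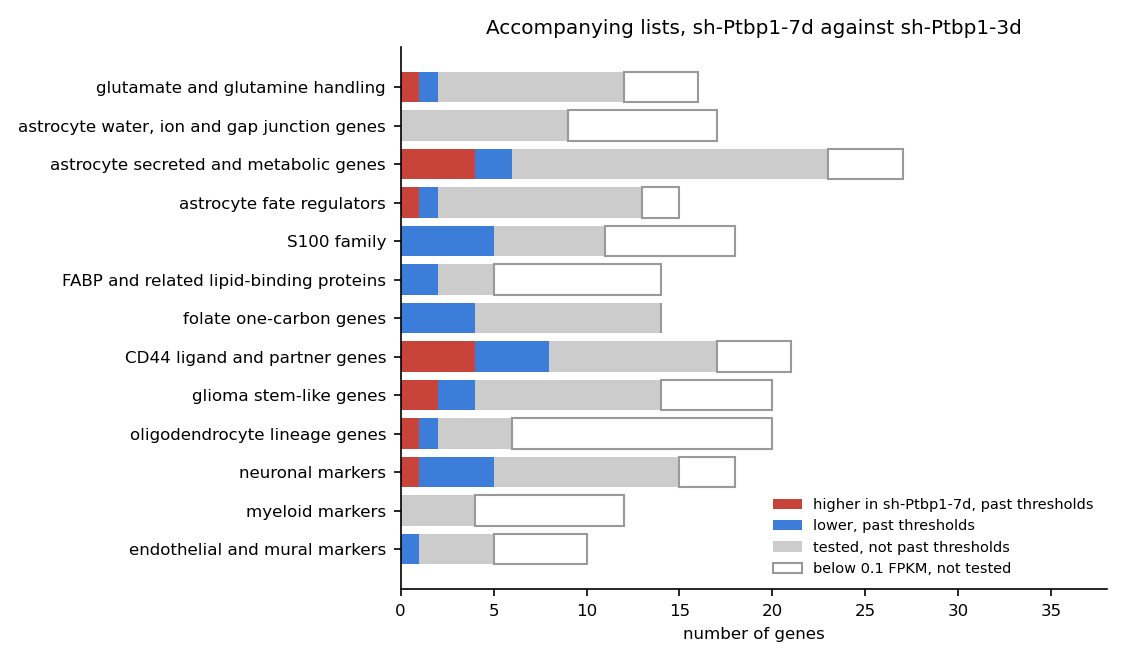
Number of genes (horizontal axis) in the 13 lists that passed the thresholds between the 7-day and 3-day knockdown, higher in red and lower in blue, with grey for genes tested that did not pass and white for genes below 0.1 FPKM. The S100, lipid-binding and folate lists hold only falls, 5 of 11, 2 of 5 and 4 of 14 genes tested, the endothelial and mural list 1 fall of 5, and the CD44 list 4 rises and 4 falls of 17. Over all genes tested, 8.31% rose and 5.9% fell past the thresholds.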

How the data were processed

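RNA-seq libraries of U251 cells, 3 per group, were analysed from the FPKM values that the authors deposited per gene and library, after filtering the reads and aligning them to the reference. The submitters' processing notes name HISAT2 and GRCh38. The program that computed FPKM and the strand setting are not given in the sources used here. The authors also deposited positions (another kind of value) of 2363 loci assembled by StringTie, which stand among the 22295 entries and overlap no member. Of 19932 symbols, 97.6% are in GENCODE v29, the source of positions. Antisense genes overlap AQP4, SLC1A2, SLC1A3, ALDH1L1, CD44 and OLIG2, and without a known strand setting their reads cannot be told apart. Ratios of values under 0.1 FPKM between a pair of libraries piled up at no step that could be 1 read (at most 1.004% of them within 0.2% of each other), so the depth is unknown and no counting interval is given. The sums over a library ranged from 367412 to 404922.

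log2(FPKM + 0.1) was fitted with limma 3.58.1 in R 4.3.3 for all 9 libraries, with an intensity trend, and checked on simulated data. With 3 libraries against 3, the smallest two-sided p of an exact permutation test is 0.1, and none was run. Promoters were the 250 bases before RefSeq starts. Figures used matplotlib 3.10.9.

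The members, the 13 lists and the tests were chosen with earlier results of these data known. Genes named were the members, PTBP1, PTBP2, 9 relatives and, per list, 7-day comparison and direction, at most the 2 largest changes past the thresholds with a mean of at least 1 FPKM. The cell type markers were also fixed. Exceptions are stated where they occur. A gene that this rule also selects is not reported here. Alternatives were other pseudocounts, filters, scalings, fits and thresholds, the replicate number as a block and leaving out each library.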

Additional observations from a re-analysis of the deposited data

How the results depend on the processing

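SLC1A3 and CD44 kept their direction and call in both comparisons with sh-Ptbp1-7d under every alternative run, with log2 fold changes of 1.53 to 2.07 and -1.65 to -1.31. S100B kept its direction there and lost its call at a pseudocount of 1 (0.69 and 0.68), at 0.01 (2.77 and 3.51, FDR missed) and, against sh-Ptbp1-3d, without sh-Ptbp1-7d replicate 1 (1.98). With a minimum mean of 1 FPKM it was not tested. GLUL stayed under the fold threshold, and its adjusted p in limma ranged from 0.00198 to 0.02005 against sh-Ptbp1-3d, so that the FDR threshold alone was not always passed. Between the day 3 groups, where no member passed, S100B turned to -0.00394 at a pseudocount of 1 and ranged from -0.40 to 0.45 when 1 library was left out, SLC1A3 from -0.13 to 0.18 and FABP7 from -0.14 to 1.47. Quantile normalization moved the median of all genes from 0.09 to -0.01 between the days, and TPM moved it to 0.19. With the replicate block, 3 members passed in both comparisons with sh-Ptbp1-7d and 0 at day 3, and GLUL had an adjusted p of 0.00642 and 0.00154 in limma. Libraries of the same number correlated by -0.03 to 0.05 in their deviations from the group means, and those of unequal number by -0.07 to 0.06. Equal numbers thus showed no shared deviation, which cannot tell whether such libraries were prepared together. Of the counts of list genes past the thresholds, 53 moved by over 1.5 times and 727 did not. Between the days, those of the glutamate, S100, folate, CD44 and myeloid lists did not. The counts ranged from 0 to 2 for the oligodendrocyte (2 as reported) and endothelial (1) lists, from 1 to 2 for the lipid-binding list (2), from 1 to 3 for the fate list (2), from 3 to 7 for the secreted (6) and neuronal (5) lists and from 2 to 5 for the stem-like list (4), with the lowest count of each at a pseudocount of 1, a minimum mean of 1 FPKM or both. The water and ion list (0) had 1 without the filter on low values, without assembled loci and without the trend. Leaving out 1 library moved the counts of the lipid-binding, oligodendrocyte and endothelial lists by over 1.5 times. Between the day 3 groups, the myeloid and endothelial lists (0 each) had 1 gene each without sh-Luci-3d replicate 3, and no other list count moved. The unknown depth limits what can be said of the 5 members below 0.1 FPKM.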
